A study of Homo sapiens with 6 samples.

Results

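The 10 genes described here encode the receptor chains for type I and type II interferon (IFN), IFNAR1, IFNAR2, IFNGR1 and IFNGR2, the kinases JAK1, JAK2 and TYK2, and the inhibitors SOCS1, SOCS3 and PTPN2. They were chosen by symbol from a table of 37887 listed genes, all 10 were found there, and all 10 passed the filter on low counts together with 18851 genes in all. RNA-seq was performed on BT-549 cells, a cultured human breast cancer line of the triple-negative type, to determine which transcripts depend on IRF1, a transcription factor induced by IFNs. The 3 control samples received 0.1% DMSO and carry a control shRNA in their titles, whereas the 3 IRF1shRNA samples received doxycycline at 500 ng/ml. The series text describes both groups as one BT-549 line with a stable tet-inducible IRF1 shRNA vector, and in this reading the control cells carry the vector too. Doxycycline was given to the IRF1shRNA samples alone, so its effects and those of silencing cannot be told apart. In the reading of the titles, the groups also carry different shRNA vectors. Differences between the vectors or the cells that carry them then cannot be told apart from silencing either. One shRNA against IRF1 in BT-549 cells was sequenced, and nothing beyond culture in triplicate says whether the samples came from separate experiments. The p-values therefore set the group difference against the spread between these samples only.

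Type I IFNs bind a receptor of IFNAR1 and IFNAR2 chains, which hold the kinases TYK2 and JAK1, and IFNγ binds a receptor of IFNGR1 and IFNGR2 chains, which hold JAK1 and JAK2. The kinases phosphorylate STAT proteins, which activate IFN-stimulated genes alone or with IRF9. The pathway is shut off by SOCS proteins, which are themselves induced by STATs and IRFs and block the kinases, and by phosphatases such as PTPN2 that remove phosphate from JAKs and STATs.

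Promoter sequence was examined for the gene that carries the largest decrease among the inhibitors and for the receptor chain with the largest decrease. RefSeq windows from 250 bases before to 50 bases after a transcription start (GRCh38.p14) were matched for 9 of the 10 genes, with 17 windows in all. They were searched on both strands for GAAA followed by any pair of bases and a further GAAA, the core of the IFN-stimulated response element (ISRE) to which IRFs bind, and TTCNNNGAA, the gamma-activated sequence (GAS) bound by STAT dimers. The GAS letters were in 0 of the 17 windows, against 7.66% of all 35116 windows of this length, and the ISRE letters were in 1, against 3.57% of all windows. That window belongs to SOCS1, where the match begins 113 bases before the start site. A match is a description of letters and not evidence of binding. The windows follow RefSeq starts, and some lie away from the gene starts annotated by GENCODE. The only PTPN2 window (chr18:12840913-12841212) lies inside the gene, whose annotated start on the minus strand is 12929643. Neither SOCS3 window (chr17:78360876-78361175 and chr17:78359618-78359917) covers the annotated SOCS3 start at 78360077. A JAK2 window (chr9:5041282-5041581) also lies inside its gene. The IFNAR1 windows (chr21:33324145-33324444 and chr21:33324720-33325019) lie on either side of its annotated start at 33324477. The only IFNGR2 window (chr21:33403163-33403462) lies inside the gene, whose annotated start on the plus strand is 33402896. The annotated starts of PTPN2, SOCS3, IFNAR1 and IFNGR2 were therefore not searched, and IFNAR2 had no window. The 250 bases before the RefSeq starts of SOCS1 (chr16:11256205-11256454, minus strand) and IFNGR2 (chr21:33403163-33403412, plus strand) are given 5′ to 3′, with the ISRE letters in capitals. The printed IFNGR2 bases lie inside the gene as annotated by GENCODE, so the 2 stretches are not like for like.
SOCS1: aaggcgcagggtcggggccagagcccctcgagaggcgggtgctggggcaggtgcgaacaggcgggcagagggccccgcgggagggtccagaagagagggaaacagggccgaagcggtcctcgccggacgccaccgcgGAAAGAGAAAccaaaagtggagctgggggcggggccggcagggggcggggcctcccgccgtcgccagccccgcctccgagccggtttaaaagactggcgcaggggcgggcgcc
IFNGR2: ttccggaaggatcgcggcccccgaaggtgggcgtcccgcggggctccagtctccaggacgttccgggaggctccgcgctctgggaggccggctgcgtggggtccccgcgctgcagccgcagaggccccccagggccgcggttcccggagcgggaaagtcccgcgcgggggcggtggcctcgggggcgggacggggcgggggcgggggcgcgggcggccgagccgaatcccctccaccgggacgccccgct

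The libraries held between 55143808 and 160436234 counts, with IRF1shRNA replicate 2 the shallowest. IRF1 was at 45.3 to 51.5 CPM (read counts scaled to library size, with TMM factors) in the control samples and at 13.8 to 14.9 CPM in the IRF1shRNA samples, or 29.9% of control. The mesenchymal marker VIM was abundant but lower after silencing, at 888 to 945 CPM and then 593 to 658 CPM (log2 fold change −0.56), while the epithelial markers CDH1 and EPCAM and the receptors ESR1 and PGR reached at most 0.802 CPM. ERBB2 was lower as well, at 47.7 to 54.8 CPM and then 35.0 to 38.1 CPM (−0.48). Markers of blood and endothelial cells, 7 in number, summed to between 1.72 and 1.85 CPM in the control libraries and to between 2.61 and 3.33 CPM after silencing. Most of this was CD14, at 0.996 to 1.25 and then 2.08 to 2.43 CPM, while CD3E and CDH5 each had no count in 5 of the 6 samples. Their part in the results was not tested. As these are bulk samples, fewer cells with a transcript and less of it per cell cannot be told apart.

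The inhibitors and the IFNγ receptor chains differed between the groups, in both directions, whereas no change was detected for the type I receptor chains, JAK2 and TYK2. Of the 10 genes, IFNGR1, JAK1 and PTPN2 rose and IFNGR2, SOCS1 and SOCS3 fell past an adjusted p threshold of 0.05 (quasi-likelihood test in edgeR, Benjamini-Hochberg over all genes tested). These 6 of 10 stand beside 50.5% of all genes tested, with 24.1% of all genes higher and 26.4% lower, so the share that changed is near that of the transcriptome as a whole. None of the 10 genes changed over 2-fold, as 7.86% of all genes tested did. Control and IRF1shRNA values were fully separate for 7 of the 10 genes, 4 of them higher and 3 lower in IRF1shRNA samples, against 56.8%, 27.3% and 29.5% of all genes tested. The median log2 fold change over the 10 genes was 0.06, against −0.0024 over all genes tested, and the median size of the change was 0.18 against 0.28. Comparisons of size with all genes tested, here and below, were not matched for expression level.

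**Figure D1:**
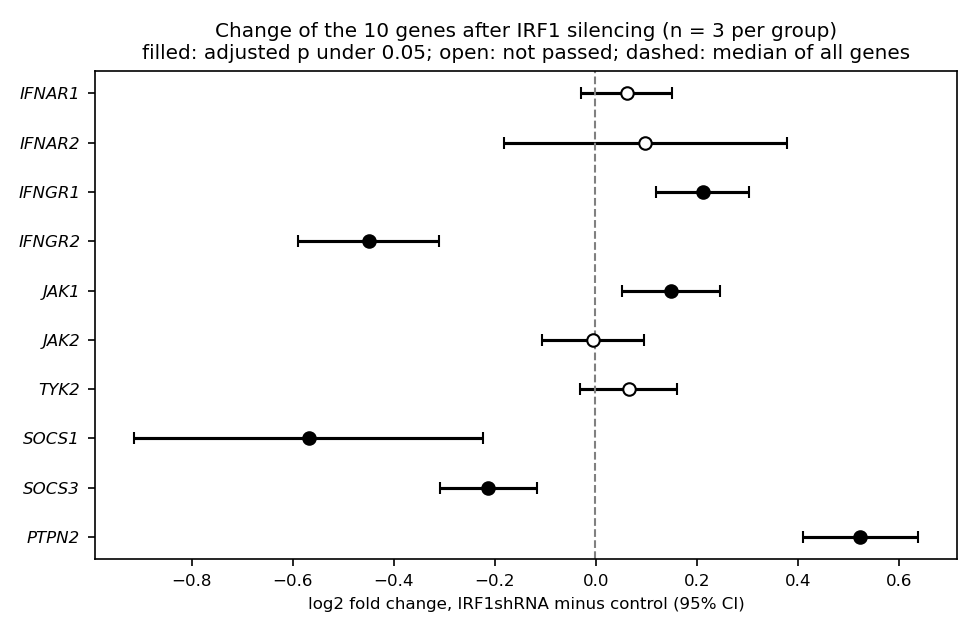
Log2 fold change of the 10 genes, IRF1shRNA minus control (x axis), with 95% confidence intervals from the edgeR fit (n = 3 per group). Filled points passed an adjusted p under 0.05 and open points did not, and the dashed line marks the median of all genes tested at −0.0024. PTPN2 at 0.52 and SOCS1 at −0.57 lie farthest from it in either direction.

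The type I receptor chains did not pass the test. IFNAR1, the chain that holds TYK2, measured 93.7, 94.3 and 88.4 CPM in the controls, by replicate number, and 98.6, 94.5 and 95.03 CPM with IRF1 silenced. Each IRF1shRNA value lay above each control value, but the gap between the nearest samples was small. The log2 fold change was 0.06 ± 0.04 (SE) (95% confidence interval −0.03 to 0.15; edgeR adjusted p 0.265). When samples were scaled by library size only, IFNAR1 passed the threshold at 0.11 (edgeR adjusted p 0.0433, and 0.0433 to 0.569 over all alternatives).

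IFNAR2, the chain that binds type I IFN with the higher affinity and holds JAK1, measured 1.85, 2.06 and 1.79 CPM in the controls and 2.25, 1.71 and 2.05 CPM with IRF1 silenced. The groups overlapped, with the highest and the lowest value both among the IRF1shRNA samples. The log2 fold change of IFNAR2 was 0.10 ± 0.13 (SE), and the interval from −0.18 to 0.38 leaves changes in either direction possible. The IFNAR2 level is uncertain in itself. In GENCODE release 29 (GRCh38), IFNAR2 lies at chr21:33229901-33265675, and 44.2% of its exon bases are shared on the same strand with the readthrough gene AP000295.1, which was not analysed here. A further antisense gene, IL10RB-DT, overlaps 39.1% of the exon bases on the opposite strand. Reads from bases shared on the same strand cannot be assigned to one gene. The libraries keep strand, but whether it was used in counting is not given in the sources used here.

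Both chains of the IFNγ receptor changed, in opposite directions. IFNGR1, the ligand-binding chain, measured 44.0, 45.7 and 45.1 CPM in the controls and 52.5, 52.1 and 51.4 CPM with IRF1 silenced. The values within a group lay close together and the groups were well separated. IFNGR1 rose from 44.9 ± 0.821 to 52.0 ± 0.541 CPM (means and SD of 3 samples), a log2 fold change of 0.21 ± 0.04 (SE) and an adjusted p of 0.000538 in the edgeR test.

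IFNGR2, the chain that brings JAK2 to the receptor, measured 30.6, 34.2 and 33.6 CPM in the controls and 25.4, 21.9 and 24.6 CPM with IRF1 silenced. Every IRF1shRNA sample was below every control. IFNGR2 fell from 32.8 ± 1.92 to 24.0 ± 1.81 CPM, or 73.0% of control, with a log2 fold change of −0.45 ± 0.07 (SE) and an adjusted p of 1.77e-05 in the edgeR test. On the opposite strand, exons of TMEM50B cover 12.8% of the IFNGR2 exon bases. TMEM50B rose, from 13.2 to 14.3 CPM in control to 23.2 to 25.5 CPM in IRF1shRNA samples (log2 fold change 0.81), the opposite direction to IFNGR2. Whether strand was used in counting is not given, and the part of shared reads in either value was not tested.

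**Figure D2:**
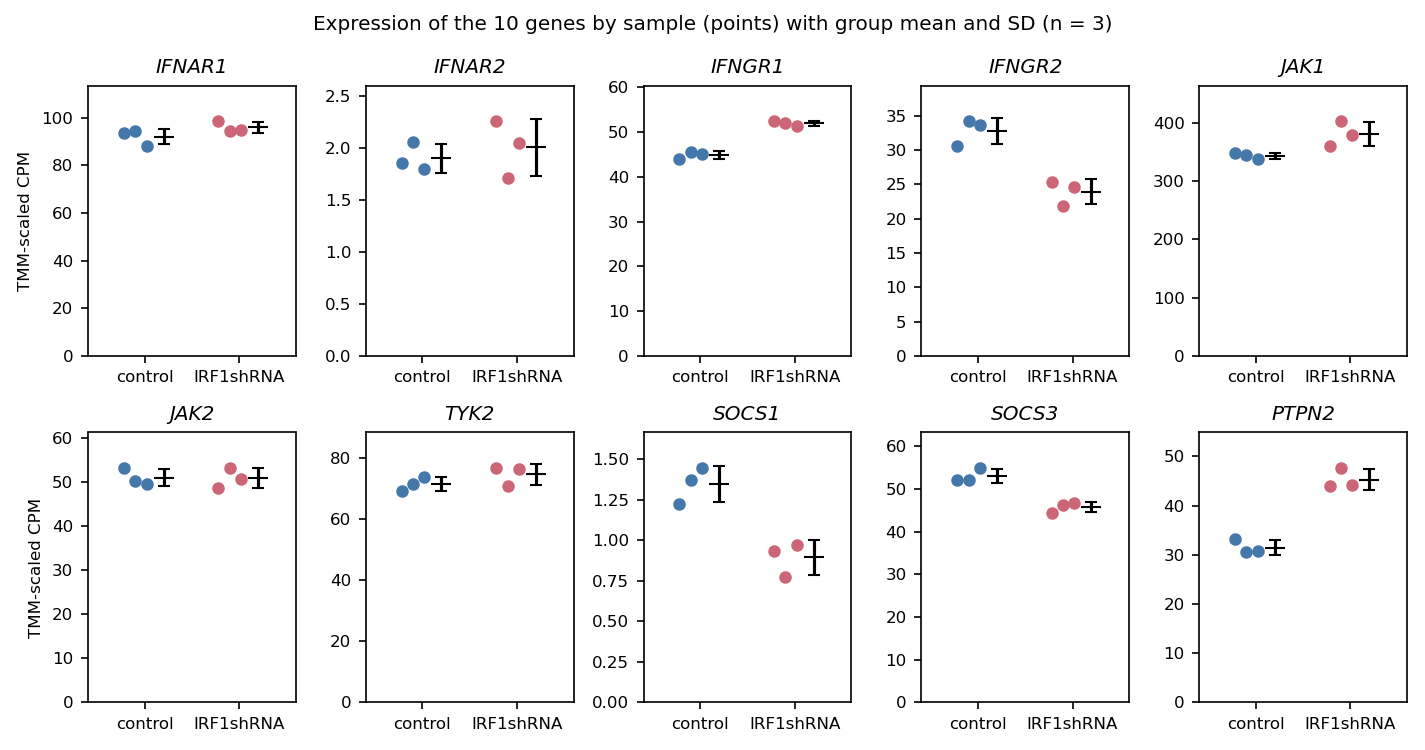
Expression of each of the 10 genes in TMM-scaled CPM (y axis, from 0, with its own scale in each panel) in the 3 control (blue) and 3 IRF1shRNA (red) samples, with the group mean and SD in black. The groups are apart for IFNGR1, IFNGR2, SOCS1, SOCS3 and PTPN2, close for IFNAR1 and JAK1, and overlap for IFNAR2, JAK2 and TYK2.

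The balance between chains or family members was compared within each library, since a ratio of counts there does not depend on how libraries are scaled. The ratio of IFNGR1 to IFNGR2 counts was 1.44, 1.33 and 1.34 in control and 2.07, 2.38 and 2.09 in IRF1shRNA replicates 1 to 3. It was therefore higher in each IRF1shRNA sample than in any control, by 0.67 on the log2 scale. The exact two-sided permutation test gave p = 0.1 (n = 3 each), the smallest that this design allows, and 0.167 after Benjamini-Hochberg adjustment over 5 ratios. The ratio of IFNAR1 to IFNAR2 counts, by contrast, ran from 45.9 to 50.6 in control and from 43.7 to 55.2 in IRF1shRNA samples, with overlap.

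The JAK1 to JAK2 ratio was 6.54 to 6.86 in control and 7.43 to 7.58 in IRF1shRNA samples, also without overlap, while the JAK1 to TYK2 ratio overlapped at 4.57 to 5.03 against 4.69 to 5.69. SOCS1 to SOCS3 ran from 0.0235 to 0.0264 in control and from 0.0168 to 0.0211 in IRF1shRNA samples. These 2 ratios without overlap had the same exact permutation p of 0.1 (n = 3 each), and a design of this size cannot go lower.

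**Figure D3:**
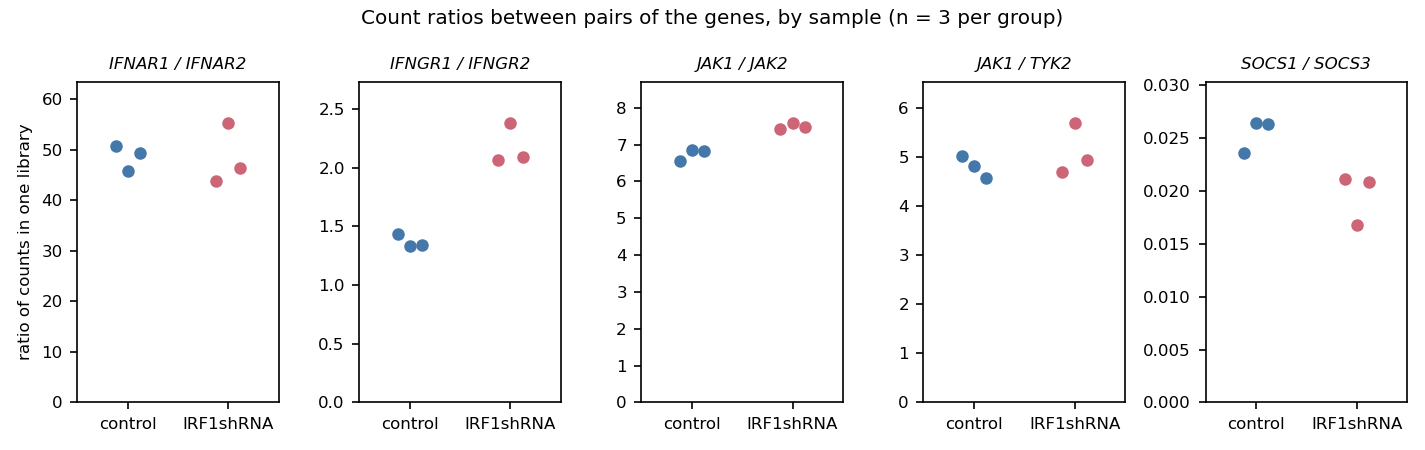
Ratio of counts of 2 genes in the same library (y axis, from 0, with its own scale in each panel) for 5 pairs, in the 3 control (blue) and 3 IRF1shRNA (red) samples. The IFNGR1 to IFNGR2 ratio moved from at most 1.44 to at least 2.07, while IFNAR1 to IFNAR2 and JAK1 to TYK2 overlap between the groups.

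Of the kinases, JAK1 alone passed the test. JAK1, which serves both IFN receptors and many cytokine receptors, measured 348, 344 and 338 CPM in the controls and 361, 403 and 378 CPM with IRF1 silenced. The groups did not overlap, and the IRF1shRNA samples were more scattered than the controls. JAK1 rose with a log2 fold change of 0.15 ± 0.05 (SE) and an adjusted p of 0.0114 in the edgeR test.

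JAK2, the partner of JAK1 at the IFNγ receptor, measured 53.2, 50.2 and 49.5 CPM in the controls and 48.6, 53.2 and 50.7 CPM with IRF1 silenced. The means, 51.0 ± 1.95 and 50.8 ± 2.29 CPM (SD, n = 3 each), differed by less than the spread within either group. The 95% confidence interval of its log2 fold change ran from −0.11 to 0.10, and its sign depended on scaling. TYK2, the partner of JAK1 at the type I receptor, measured 69.2, 71.5 and 74.0 CPM in the controls and 76.9, 70.8 and 76.6 CPM with IRF1 silenced. These values overlap, and the log2 fold change was 0.06 ± 0.05 (SE; 95% confidence interval −0.03 to 0.16; edgeR adjusted p 0.264). Under library size only TYK2 passed at 0.12 (edgeR adjusted p 0.0461, and 0.0461 to 0.573 over all alternatives).

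The SOCS inhibitors fell. SOCS1, which binds the JAKs and blocks their active site, measured 1.23, 1.37 and 1.45 CPM in the controls and 0.937, 0.775 and 0.972 CPM with IRF1 silenced. All IRF1shRNA values were below all controls, with the lowest in the shallowest library. SOCS1 fell from 1.35 ± 0.113 to 0.894 ± 0.105 CPM, that is 66.3% of control, with a log2 fold change of −0.57 ± 0.16 (SE) and an adjusted p of 0.00754 in the edgeR test. The gene was scarce, with 151 to 216 counts in control and 43 to 160 counts in IRF1shRNA libraries, and its 95% confidence interval, −0.91 to −0.22, was the widest of the 10 genes. Its promoter window is the one that holds the ISRE letters, and any part of those letters in the fall was not tested.

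SOCS3, which acts on JAKs bound to receptors of the gp130 (IL6ST) family, was more abundant. It measured 52.0, 52.0 and 54.9 CPM in the controls and 44.4, 46.1 and 46.6 CPM with IRF1 silenced, with no overlap. SOCS3 fell from 53.0 ± 1.703 to 45.7 ± 1.17 CPM, or 86.3% of control (log2 fold change −0.21 ± 0.05, SE; adjusted p 0.000735 in the edgeR test).

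PTPN2, the phosphatase, moved the other way. It measured 33.1, 30.6 and 30.7 CPM in the controls and 43.9, 47.7 and 44.2 CPM with IRF1 silenced. The lowest IRF1shRNA value lay well above the highest control value. PTPN2 rose from 31.5 ± 1.44 to 45.3 ± 2.08 CPM, or 144% of control. Its log2 fold change of 0.52 ± 0.05 (SE) had the smallest adjusted p of the 10 genes, 2.96e-07 in the edgeR test, with a 95% confidence interval from 0.41 to 0.64.

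The 10 genes differed widely in level. Levels were compared per kilobase (kb) of exon, taking all exon bases of a gene in GENCODE release 29. In control samples JAK1 was highest at 54.3 ± 0.821 CPM per kb (SD, n = 3), followed by SOCS3 (19.4), IFNAR1 (14.6), IFNGR1 (13.7), IFNGR2 (11.1), TYK2 (10.6), JAK2 (8.26), PTPN2 (3.61), SOCS1 (0.751) and IFNAR2 (0.412). IFNGR2 and TYK2 were the one pair of neighbours in this order whose values overlapped. In IRF1shRNA samples JAK1 was again highest, at 60.3 ± 3.32 CPM per kb. There IFNGR1 stood above IFNAR1 (15.9 against 15.2), and IFNGR2, at 8.10, stood below TYK2 and overlapped JAK2 at 8.23. SOCS1 (0.498) and IFNAR2 (0.434) overlapped as well. The IFNAR2 value rests on exons of which much is shared with other genes. Exons that BT-549 cells do not use lower these values by an unknown amount.

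**Figure D4:**
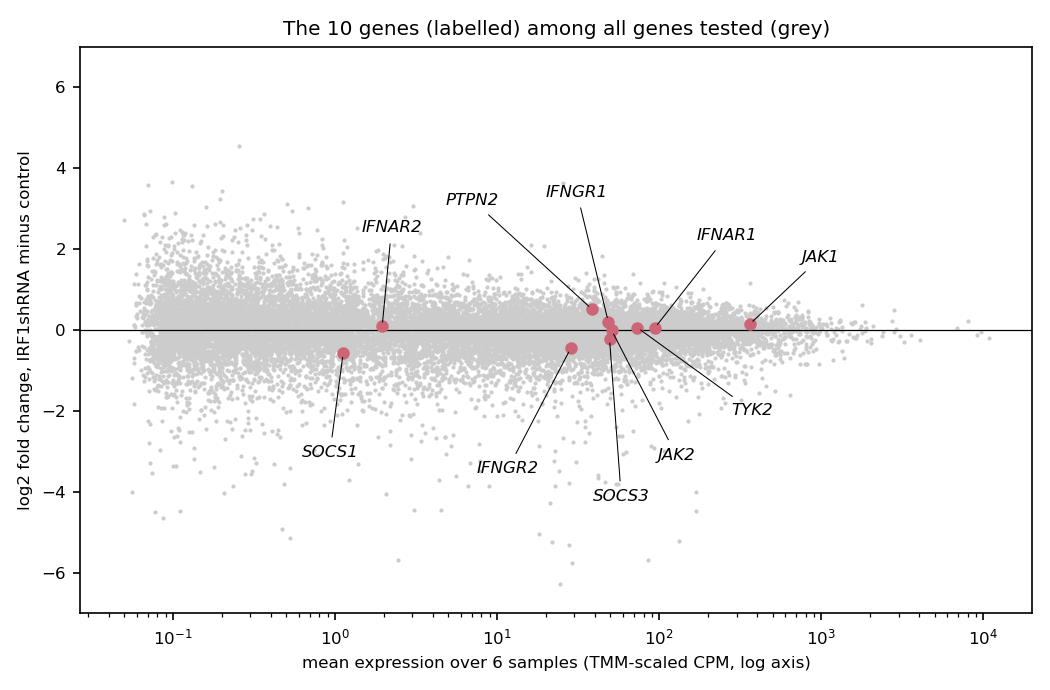
Log2 fold change, IRF1shRNA minus control (y axis), against mean expression over the 6 samples in TMM-scaled CPM (x axis, log scale), for all 18851 genes tested (grey) and the 10 genes (red, labelled). The 10 genes lie between −0.57 and 0.52, inside the band of most genes of like abundance, and SOCS1 and IFNAR2 are the least abundant.

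Other genes of the JAK-STAT pathway were examined in lists by role. Of 84 genes, 80 were matched in the table and 53 were tested, of which 14 rose, 19 fell and 20 did not pass at an adjusted p under 0.05 in the edgeR test. Over 2-fold, 4 rose and 8 fell. Of all genes tested, 24.1% rose, 26.4% fell and 7.86% changed over 2-fold. Their median log2 fold change was −0.08, against −0.0024 over all genes tested, and the median size of the change was 0.42, against 0.28.

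IFN genes other than IFNE were barely detected. Of 22 ligand genes, 9 had no count in any library and another 7 reached at most 3 counts in any library, where 3 counts equal 0.0182 to 0.054 CPM. The 2 that could be tested did not pass. IFNE, an epithelial type I IFN, averaged 1.25 ± 0.186 CPM in the controls and 1.29 ± 0.0545 CPM with IRF1 silenced, and IFNA1 was at 0.0406 to 0.101 CPM in the controls and, without overlap, at 0.126 to 0.222 CPM after silencing, from 5 to 28 counts per library (log2 fold change 1.02 ± 0.49, SE; edgeR adjusted p 0.0951). IFNB1, which encodes the type I IFN of most non-immune cells, had 18, 10 and 8 counts in control and 4, 2 and 6 counts in IRF1shRNA libraries and was below the filter. It was named after its values were seen. IFNG had no count. Of the type III IFN receptor genes, IL10RB did not pass (0.786 ± 0.158 against 0.717 ± 0.148 CPM) and IFNLR1 had 2 to 16 counts per library and was not tested. JAK3, the kinase of immune cells, averaged 0.536 ± 0.116 and 0.586 ± 0.233 CPM and did not pass.

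Of the STAT genes examined and IRF9, transcription factors downstream of the receptors, 4 of 7 fell and 2 rose, where 26.4% and 24.1% of all genes tested did. Their median size of change was 0.80 on the log2 scale, against 0.28 over all genes tested and 0.18 for the 10 genes. In the complex that type I IFN activates, STAT2 fell from 64.1 to 31.9 CPM (log2 fold change −1.01 ± 0.06, SE) and IRF9 from 4.69 to 1.71 CPM (−1.43 ± 0.12). STAT6, which acts downstream of IL-4, fell by 0.80 on the log2 scale, and STAT5B by 0.20. STAT3, the main STAT of the gp130 receptors, rose by 0.13 on the log2 scale, from 339 to 371 CPM. STAT4 rose from 0.0640 to 0.267 CPM, near the limit of detection, and STAT5A did not pass (−0.55, adjusted p 0.0526 in the edgeR test).

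All 6 other SOCS genes passed, in both directions. SOCS2, a feedback inhibitor of growth hormone signaling, fell from 3.98 ± 0.102 to 2.14 ± 0.0524 CPM (log2 fold change −0.89). SOCS6 fell by 0.42 and SOCS5 by 0.46 on the log2 scale, whereas SOCS7 rose by 0.45. The other two, named after their values were seen, were CISH (−0.75) and SOCS4 (0.35). With SOCS1 and SOCS3, 6 of the 8 family members fell and 2 rose, where 26.4% and 24.1% of all genes tested did.

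Of 14 other inhibitors, 4 rose, 3 fell and 7 did not pass, where 24.1% of all genes tested rose and 26.4% fell. The share that changed is near that of all genes tested (50.5%). USP18, which binds IFNAR2 and keeps JAK1 off the type I receptor, fell from 12.4 ± 2.46 to 1.29 ± 0.204 CPM (means and SD of 3 samples), a log2 fold change of −3.28 ± 0.14 (SE), the lowest value in this list. The phosphatase PTPN1, a close relative of PTPN2 that acts on JAK2 and TYK2, fell from 159 ± 3.64 to 115 ± 1.78 CPM (−0.46 ± 0.04), the opposite direction to PTPN2. PIAS4, an inhibitor of STAT activity, fell (−0.60), and PTPN11, the phosphatase SHP2, rose (0.34). The others that passed, named after their values were seen, were PTPN6 (1.89), BTRC (0.35) and PIAS3 (0.19).

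Other receptors that use JAKs moved both ways, with 6 higher and 8 lower of 22 tested, beside 24.1% and 26.4% of all genes tested. PRLR, the prolactin receptor, fell from 105 ± 2.55 to 31.3 ± 2.26 CPM (log2 fold change −1.74 ± 0.05, SE). IL7R fell by 1.03 and IL15RA by 1.98 on the log2 scale. OSMR, the receptor for oncostatin M, rose from 284 ± 4.99 to 436 ± 15.8 CPM (0.62 ± 0.04). These 4 had the smallest adjusted p of the 22, and 8 others did not pass.

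**Figure D5:**
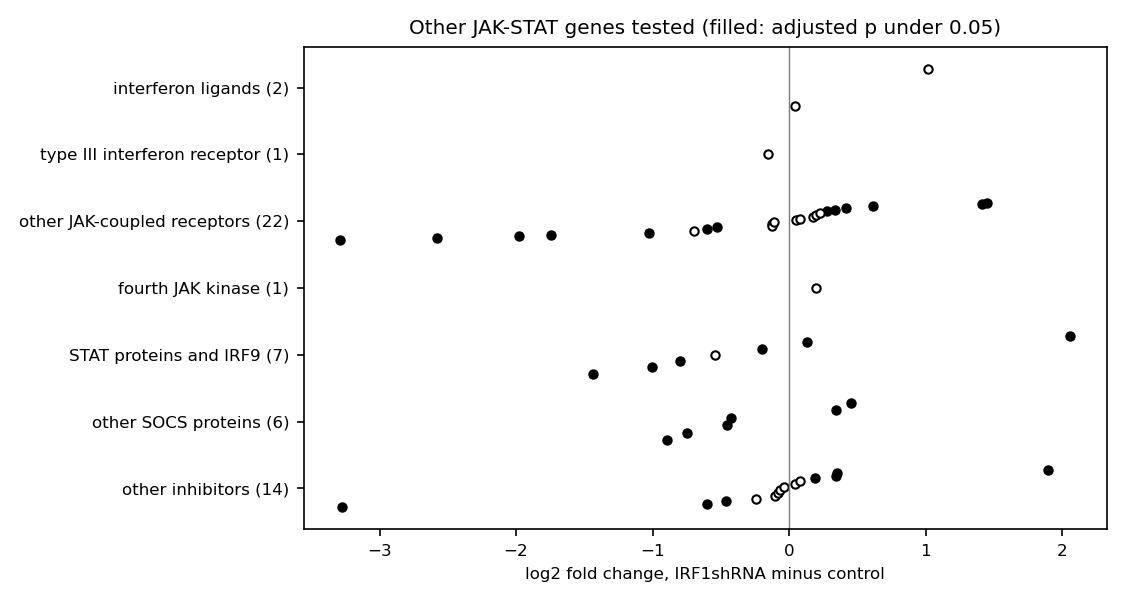
Log2 fold change, IRF1shRNA minus control (x axis), of the 53 other JAK-STAT genes tested, 1 point per gene, in rows by list with the number tested in parentheses. Filled points passed an adjusted p under 0.05 in the edgeR test and open points did not. The row of STAT proteins and IRF9 lies mostly left of 0, with STAT4 at 2.06 to the right, and the leftmost points are IL12RB1 and USP18.

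IFNAR2, IFNAR1 and IFNGR2 lie within 249.4 kb on chromosome 21 (GRCh38, 33229901 to 33479348). Of the 3, IFNGR2 alone passed the edgeR test with TMM scaling, which does not show that the other genes were unchanged. The nearest tested protein-coding genes on either side of the 10 genes numbered 18, of which 3 rose and 6 fell, beside 50.5% of all genes tested that changed. SOCS1 had the log2 fold change of greatest size among the 10 genes. The 3 genes with values most like it, by distance between centred log2 CPM over the 6 samples among 13066 genes, were KCNJ12 (distance 0.0856), CST3 (0.100) and ABCC3 (0.104).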

How the data were processed

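RNA from 3 control and 3 IRF1shRNA samples of BT-549 cells was sequenced from TruSeq Stranded mRNA libraries. The table the authors deposited holds unnormalized counts by gene symbol, and all 6 columns were matched to samples by title. The submitters' processing notes name STAR 2.7.9a, featureCounts, DESeq2 1.24.0 and build GRCh38.p7. The annotation release and strand setting are not given in the sources used here. Among values of 2 to 11 counts, 72.1% to 75.2% per library were even, the pattern that counting both mates of a pair would give, and an alternative therefore used halved counts.

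Groups were compared in edgeR 4.0.16 (R 4.3.3) by quasi-likelihood, with group as the factor and TMM scaling, after filterByExpr (min.count 10). P-values were adjusted by Benjamini-Hochberg over the 18851 genes left, and the code was tested on simulated data. The SE of a log2 fold change was derived from its F statistic (size over root F). Replicates of one group differed by more than sampling noise (chi-square per degree of freedom on halved counts 5.75 to 14.2). Counting floors cover counting error only. Coordinates and exon lengths come from GENCODE release 29. Alternatives were DESeq2 1.42.0, 3 other scalings, 2 other filters, halved counts, a replicate block, leaving out each sample, and a threshold of 0.01. Named genes were the 10 genes, IRF1, JAK3, STAT genes with IRF9, the type III receptor genes, in each list all that passed or the 4 with the smallest adjusted p, and the 3 most like the gene with the greatest change. A further pathway gene is not reported here and was left out of the lists. The members, lists and tests were chosen with earlier results of these data known.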

Additional observations from a re-analysis of the deposited data

How the results depend on the processing

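Of 249 values recomputed under the alternatives, 240 kept the reported call, moved by less than 1 SD between replicates where there was no test, or for counts lay within 1.5 times. The 240 include the replicate block for the 5 ratios, which returns the reported value by construction and could not have differed. The IFNAR1 to IFNAR2 ratio, whose log2 difference was −0.01, had no stable sign and ranged from −0.11 to 0.059 across fits that left out one replicate. The calls for IFNGR1, IFNGR2, JAK1, SOCS1, SOCS3 and PTPN2 held in each alternative fit at an adjusted p under 0.05. At the threshold of 0.01 JAK1 did not pass (edgeR adjusted p 0.0114), which left 2 of the 10 genes higher. The highest edgeR adjusted p was 0.0388 for JAK1 (without control replicate 2) and 0.0372 for SOCS1 (without control replicate 3). Library size only brought IFNAR1 (log2 fold change 0.11) and TYK2 (0.12) past the threshold, so that 5 of the 10 genes were higher. The median over all genes was −0.0024 as reported and 0.049 under that scaling, and the cause of these calls was not tested further. JAK2 changed sign under DESeq2 size factors (0.0014), upper quartile scaling (0.038), library size only (0.044) and a 1 CPM minimum in 3 samples (0.018), and ranged from −0.033 to 0.024 across fits that left out one replicate, with a positive sign without control replicate 1 (0.023) and without IRF1shRNA replicate 1 (0.024). Its adjusted p was between 0.478 and 0.985 over the edgeR and DESeq2 fits. SOCS1, the gene with the fewest counts among those that changed, ranged from −0.63 to −0.49 over the same fits.

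Same-numbered samples had correlations of deviations of −0.0543, 0.0435 and 0.0731, and not every sample correlated best with its own number, so the numbers were not taken to pair the samples. With the replicate block SOCS1 was at −0.58 and PTPN2 at 0.52 on the log2 scale, and no call among the 10 genes or IRF1 changed. Depth limits what can be said of IFNAR2, SOCS1 and the IFN genes, and values near 3 counts per library carry no direction.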
